A study of Mus musculus with 4 samples.

Results

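The mammalian cell cycle was examined through 38 genes of its control and of DNA replication in the liver of mice that lack Ilrun. They were every listed gene found among the probes by its symbol or accession, out of 31709 genes on the array. They fall into 11 genes of G1 control, 11 of S phase and DNA replication, and 16 of G2 and mitosis. Total RNA came from whole livers of 4 male mice with a global deletion of Ilrun (IlrunKO) and 4 male wild-type (WT) mice. All were C57BL/6 animals kept on chow, and livers were taken after 4 h without food. The labels state neither the age of the mice nor the deleted part of Ilrun. They also do not say whether each channel holds a single mouse, which is assumed here. Each of 4 two-colour arrays carried 1 IlrunKO and 1 WT liver, with IlrunKO labelled with Cy5 on arrays 1 and 2 and with Cy3 on arrays 3 and 4. Values are log2 ratios of IlrunKO over WT, or normalised log2 intensities of a single channel. Intensities are compared only within a probe, except to say which genes lie near background.

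A resting cell enters the cycle when D-type cyclins with Cdk4 phosphorylate the RB protein and free E2F factors, which switch on the genes of DNA replication. The MCM helicase is then loaded at origins, nucleotides are supplied for the new strands, and cyclin B with Cdk1 later drives mitosis. Most hepatocytes of an adult liver rest outside the cycle but can return to it after loss of tissue. Many cell cycle genes are therefore known to be low in resting liver, and mitotic genes there can come from other dividing cells.

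The Ilrun probe, listed in the files under an older name, was 18.5-fold lower in IlrunKO liver (log2 ratio -4.21 ± 0.24, SD, n = 4 arrays; limma adjusted p = 0.00335). Its ratio was between -4.04 and -4.56 on all arrays, which checks the labels, although whether the probe lies in the deleted part is not known. Among hepatocyte markers, 10 of 10 were well above background in every channel. Between 60.0% and 67.3% of probes were well above background in a channel. All arrays lay on 1 slide. Over all genes tested, 270 of 19658 (1.37%) passed an adjusted p of 0.05 in limma, 141 higher (0.717%) and 129 lower (0.656%) in IlrunKO. In whole liver, fewer cells of a type and less RNA per cell cannot be told apart.

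Of the 38 cell cycle genes, 33 had a main probe (the brightest of the gene) well above background, and all 33 were so in 8 of 8 channels. The other 5 were not tested. Ccne2, a partner of Cdk2 at the start of S phase, and Bub1, a kinase of the spindle checkpoint, were well above background in no channel. Top2a, which untangles DNA before chromosomes separate, and Aurkb, the kinase of the chromosomal passenger complex, were so in 1 IlrunKO and 1 WT channel each. Bub1b, another checkpoint kinase, was so in 2 IlrunKO channels and 1 WT channel. These 5 have no ratio here, and 4 of them are genes of G2 and mitosis.

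Among the 33 genes tested, 3 passed limma's adjusted threshold (9.09%, against 1.37% of all genes tested). Rrm2 and Ccnf fell and Birc5 rose. The remaining 30 did not pass. At an unadjusted p under 0.05 there were 14 (42.4%), 8 higher and 6 lower, against 20.5% of all genes (10.6% higher and 9.87% lower). Ratios had the same sign on 4 of 4 arrays for 17 genes (51.5%, against 23.2%), 10 above and 7 below 0. Channel levels of the genotypes did not overlap for 7 genes (21.2%, against 8.94%). They were higher in IlrunKO for 3 genes, Mcm5, Mcm6 and Birc5 (against 4.74% of all genes), and lower for 4, Cdkn1b, Rrm2, Pcna and Ccnf (against 4.2%). At an adjusted p under 0.1 there were 6 genes, against 5.69% of all genes, with Ccnd1, Mcm5 and Mcm6 added. The median log2 ratio of the 33 genes was 0.00, beside -0.00 for all genes tested. Ratios ran from -0.96 for Rrm2 to 0.93 for Birc5.

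**Figure D1:**
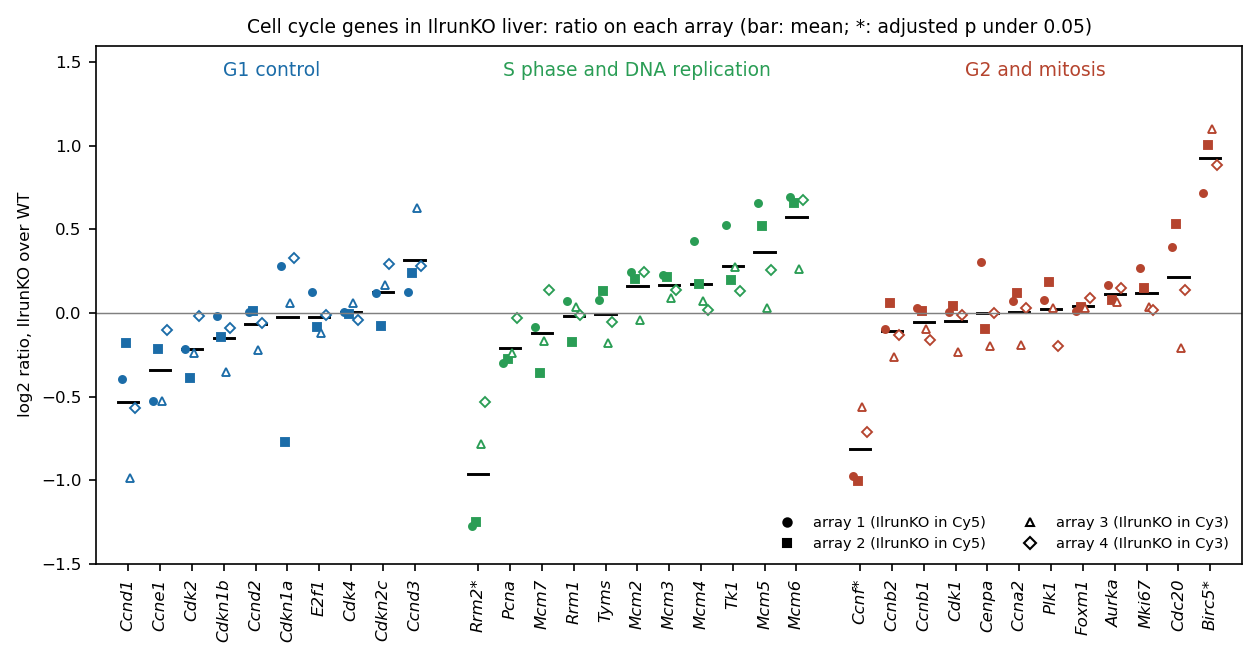
Log2 ratio of IlrunKO over WT for each tested cell cycle gene on each of 4 arrays, grouped by phase; points are arrays, bars are means, and asterisks mark an adjusted p under 0.05. The points of Rrm2 and Ccnf lie below 0 and those of Birc5 above 0 on every array, while most other genes lie close to 0.

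Rrm2 encodes the small subunit of ribonucleotide reductase, which makes deoxyribonucleotides and is made chiefly in S phase. Its normalised log2 intensity was 9.36, 9.04, 8.87 and 9.03 in the WT livers of arrays 1 to 4. In the IlrunKO livers it was 8.09, 7.80, 8.09 and 8.49. Every IlrunKO liver was below every WT liver, by the least on array 4. The log2 ratios were -1.27, -1.25, -0.78 and -0.53. The fitted difference was -0.96 (SE 0.06, n = 4 arrays; limma adjusted p = 0.0303), or 1.94-fold lower. The mean was -1.26 with IlrunKO in Cy5 and -0.66 with IlrunKO in Cy3, so the size differed between dye orientations and the sign did not. Without the dye term, the adjusted p was 0.0511. Its probe lies at chr12:25398824-25398883 (mm9, per the files). Rrm1, the large subunit, which is made more evenly through the cycle, had a ratio of -0.02 (limma adjusted p = 0.896), with values from -0.17 to 0.07.

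Ccnf, or cyclin F, is the substrate-binding part of an SCF ubiquitin ligase and is known to bind Rrm2 protein for destruction in G2. In WT livers its normalised log2 intensity was 10.87, 10.84, 10.56 and 10.70. In IlrunKO livers it was 9.89, 9.84, 10.00 and 9.99. The genotypes did not overlap, and the WT livers of arrays 1 and 2 were the highest. The ratios were -0.97, -1.002, -0.56 and -0.71. The fit gave -0.81 (SE 0.05, n = 4; limma adjusted p = 0.0303), or 1.76-fold lower. Its probe lies at chr17:24360204-24360263 (mm9).

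Birc5, or survivin, holds the chromosomal passenger complex at centromeres and is made chiefly in G2 and mitosis. Its normalised log2 intensity was 8.18, 8.38, 8.29 and 8.55 in WT livers. In IlrunKO livers it was 8.89, 9.38, 9.39 and 9.44. All IlrunKO livers were above all WT livers, with the IlrunKO liver of array 1 the closest to them. The ratios were 0.72, 1.01, 1.103 and 0.89. The fit gave 0.93 (SE 0.07, n = 4; limma adjusted p = 0.0347), or 1.90-fold higher. This brightest probe lies at chr11:117716978-117717037 (mm9). Another probe, at chr11:117711112-117711171, had a ratio of 0.16 and did not pass (adjusted p = 0.159 over probes, limma). It was well above background in 4 IlrunKO and 2 WT channels. The last probe, at chr11:117714057-117714116, was so in 2 channels of 8 and was not tested. The probes of Birc5 therefore differ in size of ratio, and with the mean over its probes the difference was 0.55.

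**Figure D2:**
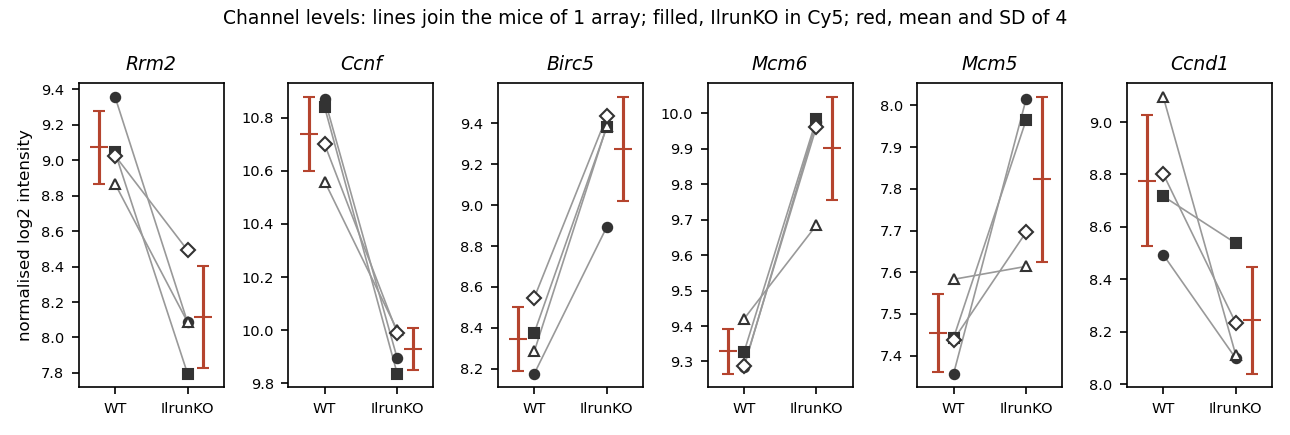
Normalised log2 intensity of single channels in WT and IlrunKO livers, a panel per gene with its own vertical scale; lines join the 2 mice of an array, filled points have IlrunKO in Cy5, and red marks the mean and SD of 4 livers. For Rrm2 and Ccnf every IlrunKO point is below every WT point, and for Birc5 every IlrunKO point is above.

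All 3 calls rested on arrays 3 and 4 both being in the fit. Without array 3, the ratios of Rrm2, Ccnf and Birc5 were -0.90, -0.85 and 0.87 (limma adjusted p = 0.125, 0.125 and 0.158). Without array 4 they were -1.02, -0.77 and 0.98 (adjusted p = 0.118, 0.123 and 0.124). In each of those fits 1 gene passed over the whole array. The ratios kept their sign and the calls were lost. Because the fit has a dye term, its error counts only the spread within a dye orientation. On simulated data of this design, more of the calls were false than the threshold allows, so an adjusted p just under it is weaker evidence than its size states.

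Promoters are shown for these genes, and for Mcm6 as the licensing gene with the largest ratio, so that the letters upstream of genes with opposite ratios can be compared. Each window is the 250 bases before the RefSeq start (GRCm38.p6, a later build than that of the probe positions), read 5′ to 3′ on the strand of the gene. Capitals mark matches on either strand to the CHR element TTTGAA, the CCAAT box, or the E2F forms TTTGGCGC, TTTCCCGC, TTTCGCGC and TTTGCCGC. Rrm2 lies at chr12:24708004-24708253 on the plus strand. Ccnf lies at chr17:24251410-24251659 on the minus strand. Birc5 lies at chr11:117848987-117849236 on the plus strand, and Mcm6 at chr1:128359706-128359955 on the minus strand.
Rrm2: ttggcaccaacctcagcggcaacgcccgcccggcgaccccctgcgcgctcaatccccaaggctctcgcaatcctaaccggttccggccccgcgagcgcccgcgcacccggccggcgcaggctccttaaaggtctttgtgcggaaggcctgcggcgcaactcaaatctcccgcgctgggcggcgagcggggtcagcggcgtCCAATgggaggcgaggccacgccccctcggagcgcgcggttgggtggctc
Ccnf: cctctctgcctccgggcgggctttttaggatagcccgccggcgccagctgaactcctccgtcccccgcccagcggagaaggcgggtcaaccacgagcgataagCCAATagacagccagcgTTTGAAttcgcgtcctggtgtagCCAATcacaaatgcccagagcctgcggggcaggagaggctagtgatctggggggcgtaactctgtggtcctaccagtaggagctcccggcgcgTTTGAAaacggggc
Birc5: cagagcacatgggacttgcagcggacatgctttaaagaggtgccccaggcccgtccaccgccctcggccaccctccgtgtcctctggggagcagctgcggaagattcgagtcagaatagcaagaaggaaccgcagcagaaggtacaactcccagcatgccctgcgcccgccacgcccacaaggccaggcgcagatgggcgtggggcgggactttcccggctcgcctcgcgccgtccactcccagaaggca
Mcm6: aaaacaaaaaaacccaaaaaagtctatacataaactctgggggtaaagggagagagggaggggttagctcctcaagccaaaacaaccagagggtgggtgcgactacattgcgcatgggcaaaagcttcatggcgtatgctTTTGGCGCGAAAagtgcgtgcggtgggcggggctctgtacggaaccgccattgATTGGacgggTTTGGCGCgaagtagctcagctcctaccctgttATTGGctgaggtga
The Rrm2 window holds 1 CCAAT box, at 50 to 46 bases before the start. That of Ccnf holds 2 CCAAT boxes and 2 CHR elements, at 130 to 125 and at 14 to 9 bases before the start. The Birc5 window holds none of these letters. The Mcm6 window holds 2 CCAAT boxes in reverse and 3 E2F matches, of which 2 overlap each other in opposite directions.

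Of the 38 genes, 31 matched an entry in the table of RefSeq promoters used here, with 35 windows in all. Motifs were searched only in the 250 bases before each start. A CCAAT box was in 24 of 35 windows (68.6%), against 33.8% of all 32851 windows, and an E2F form in 5 (14.3%), against 1.86%. A CHR element was in 7 (20%), against 16%. By phase, the CCAAT box was in 3 of 11 windows of G1 genes, 9 of 11 of S phase genes and 12 of 13 of G2 and mitosis genes. The CHR element was in 0, 1 and 6 of these windows. A match is a description of letters and not a binding site. Both genes that fell had a CCAAT box, Ccnf alone of them had a CHR element, and Birc5, which rose, had no match. Mcm6, with a ratio of 0.57 that did not pass, had CCAAT boxes and E2F matches.

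None of the 10 tested genes of G1 control passed limma's adjusted threshold. At an unadjusted p under 0.05 there were 1 higher and 3 lower of 10, against 10.6% and 9.87% of all genes. The median ratio was -0.04, with array medians of 0.01, -0.11, -0.17 and -0.03 (SD 0.08). It ran from -0.13 without array 1 to -0.022 without array 3.

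Ccnd1, cyclin D1, drives hepatocytes out of rest and had the largest ratio of this group. Its normalised log2 intensity was 8.49, 8.72, 9.10 and 8.80 in WT livers and 8.10, 8.54, 8.11 and 8.23 in IlrunKO livers. The genotypes overlapped, since the IlrunKO liver of array 2 was above the WT liver of array 1. The ratios were -0.40, -0.18, -0.98 and -0.57, with a fitted difference of -0.53 (SE 0.09; limma adjusted p = 0.0725).

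Ccnd3, another D-type cyclin, lay on the opposite side, with ratios of 0.13, 0.24, 0.63 and 0.28. The fitted difference was 0.32 (SE 0.07; limma adjusted p = 0.113), and its second probe gave 0.31. IlrunKO levels ran from 11.84 to 12.03 and WT levels from 11.40 to 11.85, so the genotypes overlapped at their edge. Ccnd2 had a ratio of -0.06, with array values on both sides of 0. The 3 D-type cyclins thus had ratios of different sign, and none passed.

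Ccne1, the cyclin that activates Cdk2 at the G1 to S transition, had ratios of -0.52, -0.21, -0.53 and -0.10. Its fitted difference was -0.34 (SE 0.10; limma adjusted p = 0.157). Cdk2 itself had ratios of -0.22, -0.39, -0.24 and -0.02, with a fitted difference of -0.21 (SE 0.06; adjusted p = 0.165). Both were below 0 on every array by their main probes, and their channel levels overlapped. A second Ccne1 probe, well above background in 2 IlrunKO and 2 WT channels, was not tested. It had ratios of 0.58, -0.14 and -0.34 on arrays 2 to 4 and no value on array 1. Cdk4, the partner of the D-type cyclins, had a ratio of 0.01 (95% interval -0.12 to 0.13), and its other probes gave -0.01 and 0.00. E2f1, a transcription factor of the G1 to S step, had a ratio of -0.02 (95% interval -0.17 to 0.13).

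Inhibitors of cyclin-dependent kinases were also mixed. Cdkn1a, or p21, which halts the cycle and is a classic p53 target, had ratios of 0.28, -0.77, 0.06 and 0.33. Its IlrunKO levels were 8.35, 7.16, 7.54 and 8.50, and its WT levels were 8.06, 7.93, 7.48 and 8.17. Array 2 was the only array below 0. Its 10 spots there had an SD of 0.08, so the low value was shared by the spots of that array. The fitted difference was -0.02 (95% interval -0.49 to 0.44; limma adjusted p = 0.961), the widest interval among the 33 cell cycle genes tested. Cdkn1b, or p27, was below 0 on every array (-0.02, -0.14, -0.35 and -0.09; adjusted p = 0.283). A second Cdkn1b probe gave -0.02, with both signs among its arrays. Cdkn2c, or p18, had a ratio of 0.13 (adjusted p = 0.306).

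All 11 genes of S phase and DNA replication were tested. Rrm2 alone passed, as the gene that fell, and no gene rose past the threshold. At an unadjusted p under 0.05 there were 5 higher and 2 lower, against 10.6% and 9.87% of all genes. The median ratio was 0.16, with array medians of 0.23, 0.18, 0.03 and 0.13 (SD 0.08). Without array 4 the median was 0.09. The 5 higher were Mcm3, Mcm4, Mcm5, Mcm6 and Tk1, and the 2 lower were Rrm2 and Pcna. For Mcm3 this holds for the main probe and not for its second probe.

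The MCM proteins form the ring-shaped helicase that is loaded at origins in G1 and unwinds DNA in S phase. Mcm6 had a normalised log2 intensity of 9.28, 9.33, 9.42 and 9.29 in WT livers and 9.98, 9.98, 9.69 and 9.96 in IlrunKO livers. The genotypes did not overlap, and the IlrunKO liver of array 3 was the lowest of its group. The ratios were 0.69, 0.66, 0.27 and 0.68, with a fitted difference of 0.57 (SE 0.08; limma adjusted p = 0.0546). Mcm6 passed without background correction (adjusted p = 0.0377), from the deposited values (adjusted p = 0.0377) and with a trended, robust variance (adjusted p = 0.0434). It did not pass without the dye term (limma adjusted p = 0.0589), from Agilent processed signals (0.0808) or with median centring (0.451). Nor did it pass when any 1 array was left out (limma adjusted p from 0.0781 to 0.153).

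Mcm5 had WT levels of 7.36, 7.44, 7.58 and 7.44 and IlrunKO levels of 8.02, 7.96, 7.61 and 7.70. The lowest IlrunKO liver was just above the highest WT liver, and both were on array 3. The ratios were 0.66, 0.52, 0.03 and 0.26, and the fitted difference was 0.37 (SE 0.06; limma adjusted p = 0.0737). The mean was 0.59 with IlrunKO in Cy5 and 0.14 with IlrunKO in Cy3, so Mcm5 was among the genes whose ratio moved with dye orientation.

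Mcm2, Mcm3 and Mcm4 had smaller ratios. Mcm2 had 0.24, 0.20, -0.04 and 0.25, and a fitted difference of 0.16 (SE 0.06; limma adjusted p = 0.255). The size for this dim gene depended on the background correction. It was 0.39 with an offset of 0 (0.52 for Mcm5) and 0.36 from Agilent processed signals (0.59 for Mcm5). Without background correction it was 0.17. Mcm3 had a fitted difference of 0.17 (adjusted p = 0.144) and Mcm4 of 0.17 (adjusted p = 0.211), each above 0 on all arrays. A second Mcm3 probe, well above background in every channel, gave 0.08 (limma unadjusted p = 0.145), with array 3 at -0.05. Mcm7 was the exception, with a fitted difference of -0.12 (95% interval -0.32 to 0.09) and array values from -0.36 to 0.14. Thus 5 of 6 helicase subunits had a ratio above 0, none passed, and the size ran from -0.12 to 0.57.

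Pcna, the sliding clamp that holds DNA polymerases on the template, had ratios of -0.30, -0.28, -0.24 and -0.03. Its IlrunKO levels were 10.40, 10.41, 10.37 and 10.56, and its WT levels were 10.70, 10.69, 10.61 and 10.59. The genotypes did not overlap, but on array 4 they were almost equal. The fit gave -0.21 (SE 0.06; limma adjusted p = 0.143). Tk1, thymidine kinase of the salvage pathway, was above 0 on every array (0.53, 0.20, 0.27 and 0.13). Its fitted difference was 0.28 (SE 0.07; adjusted p = 0.134). Tyms, which makes thymidylate by the other route, had a ratio of -0.00 (95% interval -0.13 to 0.12). Genes of nucleotide supply in this group therefore had ratios from -0.96 for Rrm2 to 0.28 for Tk1.

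**Figure D3:**
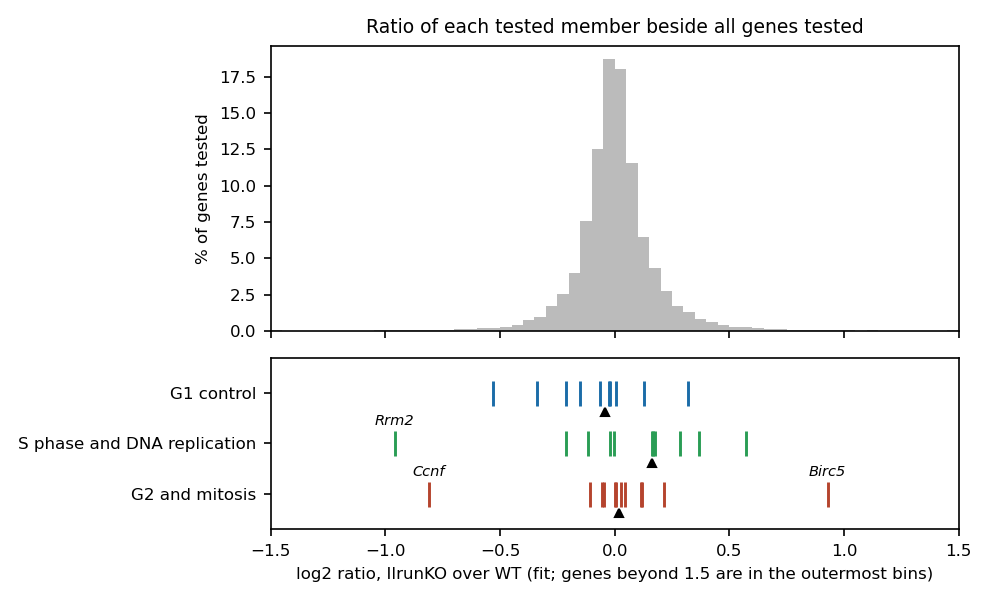
Upper panel, log2 ratio of all 19658 genes tested as a histogram in percent of genes; lower panel, the fitted ratio of each of the 33 tested cell cycle genes by phase on the same axis, with a triangle at the median. S phase genes spread from -0.96 to 0.57 with 6 of 11 above 0, and Rrm2, Ccnf and Birc5 lie farthest from 0.

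Of the 16 genes of G2 and mitosis, 12 were tested, with Ccnf lower and Birc5 higher past the threshold. At an unadjusted p under 0.05 there were 2 higher and 1 lower of 12, near the 20.5% of all genes. The median ratio was 0.02, with array medians of 0.08, 0.07, -0.14 and 0.01 (SD 0.10), and it lay within this spread of 0. The remaining genes of the group had ratios between -0.11 and 0.21.

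Mki67, the antigen Ki-67 that coats mitotic chromosomes and is widely used as a marker of dividing cells, had WT levels of 7.28, 7.45, 7.52 and 7.46. Its IlrunKO levels were 7.56, 7.60, 7.55 and 7.48. The ranges overlapped, although the ratios of 0.27, 0.15, 0.04 and 0.02 were all above 0. The fitted difference was 0.12 (95% interval -0.01 to 0.25; limma adjusted p = 0.265), and a second probe gave 0.03 with array values on both sides of 0.

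Cdc20, which activates the anaphase-promoting complex, had ratios of 0.40, 0.53, -0.21 and 0.14. Its fitted difference was 0.21 (SE 0.07; limma adjusted p = 0.211). Its mean was 0.46 with IlrunKO in Cy5 and -0.04 with IlrunKO in Cy3, so it did not keep a sign. Aurka, a kinase of the spindle poles, had ratios of 0.17, 0.08, 0.07 and 0.15, with a fitted difference of 0.12 (SE 0.05; adjusted p = 0.271). It was above 0 on every array by a small amount.

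The core of the mitotic kinase lay close to 0. Cdk1 had a ratio of -0.05 (95% interval -0.20 to 0.10), and Ccnb1, cyclin B1, had -0.05 (-0.17 to 0.06). Ccnb2, cyclin B2, had -0.11 (-0.25 to 0.04). Ccna2, cyclin A2 of S phase and G2, had 0.01 (-0.14 to 0.16), and Foxm1, a transcription factor of mitotic genes, had 0.04 (-0.07 to 0.16). Plk1, a kinase of mitotic entry, had 0.03 (-0.13 to 0.18), and Cenpa, the histone H3 variant of centromeres, had 0.00 (-0.22 to 0.22). In this fit, none of these 7 genes had an interval that reached the ratio of Ccnf or of Birc5. Foxm1, Cdk1, Ccna2, Plk1 and Ccnb1 were dim, with mean levels from 6.50 to 6.78, near the 6.33 of the untested Top2a in IlrunKO. Ratios of some dim genes depended on the offset of the background correction (50). With an offset of 0, Mcm2 moved from 0.16 to 0.39 and the brighter Ccnf from -0.81 to -0.85. Ratios of the 7 genes at that offset are not given, so values near 0 do not show that they were unchanged.

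**Figure D4:**
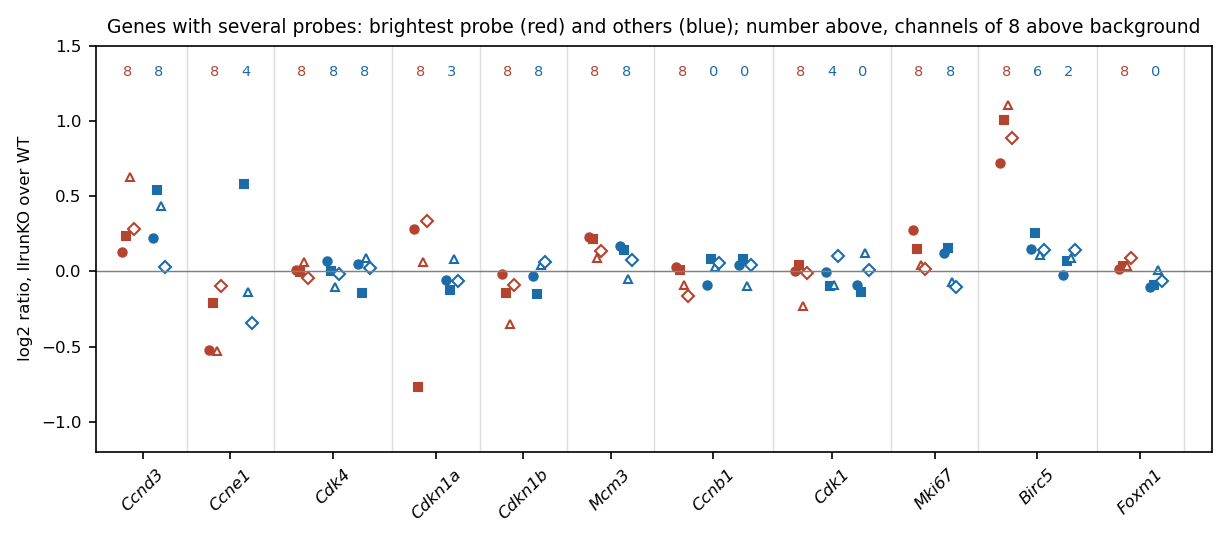
Log2 ratio of IlrunKO over WT for cell cycle genes with more than 1 probe; each symbol is an array (filled, IlrunKO in Cy5), the brightest probe is red and the others blue, and the number over each probe is its channels of 8 above background. The probes of Birc5 differ, with fitted ratios of 0.93 and 0.16, while those of Ccnd3 give 0.32 and 0.31.

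Other genes of the cycle, listed by role, gave 2 further calls. Among 37 tested of 41 genes of origin licensing and the replisome, Chaf1a passed and no gene was lower past the threshold. Chaf1a, the large subunit of the chromatin assembly factor that places histones on new DNA, rose with ratios of 0.37, 0.41, 0.46 and 0.50. Its fit gave 0.44 (SE 0.05; limma adjusted p = 0.036). At an unadjusted p under 0.05 there were 10 higher and 1 lower of 37, against 10.6% and 9.87% of all genes, and the median was 0.06. The 1 call stands beside 1.37% of all genes. The count of calls in this list was 0 without any 1 of arrays 1, 2, 3 or 4.

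Among 18 tested of 20 genes of nucleotide supply, Ctps passed. It encodes CTP synthase, and it rose with ratios of 0.58, 0.46, 0.52 and 0.69 (fitted difference 0.56, SE 0.06; limma adjusted p = 0.0352). The median of the list was 0.01, with 3 higher and 4 lower of 18 at an unadjusted p under 0.05, against 10.6% and 9.87% of all genes. The 1 call stands beside 1.37% of all genes. The count of calls in this list was 0 without array 3 or array 4 and 2 without array 1.

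No gene passed in the other lists. Among 23 tested of 25 regulators of RB, E2F and G1, the smallest p belonged to Cdc25a, a phosphatase that activates Cdk2, at -0.40 (limma adjusted p = 0.119), and Tfdp2, a dimer partner of E2F, at 0.18 (adjusted p = 0.147). There were 2 higher and 2 lower at an unadjusted p under 0.05. Among 37 tested of 56 genes of the kinetochore, spindle and chromosome segregation, they were Mad2l1, of the spindle checkpoint, at 0.33 (adjusted p = 0.077), and Ncapd2, of condensin, at 0.25 (adjusted p = 0.0865). There were 6 higher and 1 lower of 37 at that p. In both lists the share was under the 20.5% of all genes. Both genes had larger ratios on arrays 1 and 2 than on arrays 3 and 4.

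Among 20 tested of 24 p53 targets there were 1 higher and 2 lower at an unadjusted p under 0.05, a share under the 20.5% of all genes. The smallest p belonged to Perp, a desmosome and cell death gene, at -0.35 (limma adjusted p = 0.0982), and Trp53inp1, at -0.22 (adjusted p = 0.184). Among 18 tested of 20 genes of growth arrest there were 1 higher and 1 lower, again under that share. Cables1, which links cyclin-dependent kinases to their inhibitory phosphorylation, had 0.49 (adjusted p = 0.0731), and Btg1, an antiproliferative gene, had -0.45 (adjusted p = 0.0809). Cables1 had ratios of 0.98, 0.82, 0.28 and -0.11, so its arrays did not share a sign.

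**Figure D5:**
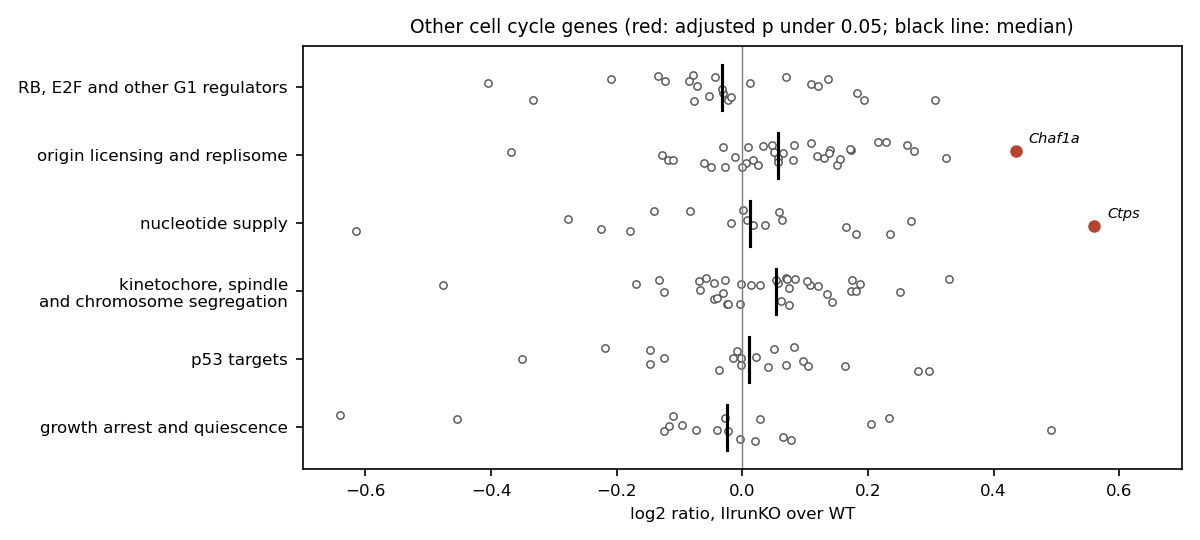
Fitted log2 ratio of IlrunKO over WT for each tested gene of 6 further cell cycle lists; points are genes, black lines are medians, and red marks an adjusted p under 0.05. Medians lie between -0.03 and 0.06, and Chaf1a and Ctps are the genes past the threshold.

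Markers of cell types in the liver were read beside these genes. Hepatocyte markers were below 0 for 9 of 10 genes, and none passed. They summed to between 708000 and 1170000 in IlrunKO livers and between 910000 and 1270000 in WT livers, in linear intensity. Their medians on arrays 1 to 4 were -0.03, 0.19, -0.55 and -0.53, so they moved with dye orientation. T and NK cell markers summed to between 7660 and 9580 in IlrunKO livers and between 9150 and 13200 in WT livers on the linear intensity scale, with 6 of 9 above background in all channels and Cd8a in none. Of 7 tested, 4 were above 0 and 3 below, with a median of 0.09. Nkg7, a granule gene, was the 1 of 7 that passed and fell (-0.76; limma adjusted p = 0.0303), against 0.656% of all genes. Stellate cell and fibroblast markers were below 0 for 10 of 10 genes (against 9946 of 19658 genes tested), with sums of 13200 to 19700 against 18400 to 22200. None passed. At an unadjusted p under 0.05, 8 of these 10 were lower and 0 higher, against 9.87% and 10.6% of all genes. Below 0 on all arrays were 8 of 10, against 11.5%. Channel levels of the genotypes did not overlap for 3 of 10 (30%, against 8.94%). Kupffer cell and macrophage markers were above 0 for 9 of 10 genes in the fit, with sums of 32500 to 49600 against 25300 to 40700, and none passed. Their medians on arrays 1 to 4 were -0.25, 0.81, 0.37 and 0.41, so array 1 lay on the other side of 0. The sums of each of these cell types overlapped between genotypes.

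Adipocyte markers summed to 7720 to 15400 in IlrunKO livers and 3610 to 4940 in WT livers, without overlap. Of 7 tested, 2 rose past the threshold (28.6%, against 0.717% of all genes). They were Cfd, a complement protease made by fat cells (3.82; limma adjusted p = 0.0469), and Adrb3, a beta-adrenergic receptor (1.04; adjusted p = 0.0303). Of the 7, 6 had a ratio above 0, and Fabp4 lay below 0 (-0.11, limma adjusted p = 0.327). Adipoq, Lep and Plin1 were above background in no channel. The part of these cell types in the results for Rrm2, Ccnf, Birc5 and the MCM genes was not tested.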

How the data were processed

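Gene expression was measured in 8 livers on 4 two-colour arrays. Per the file headers, Agilent Feature Extraction 10.10.1.1 gave the deposited scanner files, which hold raw and processed intensity and the log10 ratio (Cy5 to Cy3). The authors' value table holds deposited log2 ratios; the submitters' processing notes name limma, with no settings in the sources used here. This value table was set against the scanner log10 ratio (r across spots 0.788, 0.753, -0.743 and -0.755 by array), so its direction is IlrunKO over WT on every array; its column medians were -0.039, -0.043, 0.038 and 0.035, and its background correction stays unknown. Genotype and dye were taken from the labels. An individual mouse per channel is assumed.

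Raw intensity was background-corrected with normexp (offset 50) and normalised by loess in limma 3.58.1 (R 4.3.3, with the package data.table, version 1.17.8), with 1377 control spots at weight 0 and outlier spots left out. Spots of a probe were averaged, the brightest probe stood for its gene, and genes well above background in 3 of 4 channels of a genotype were kept (19703, of which 19658 had enough values to be fitted). Genotype and dye were the terms of the fit. Two-sided p-values were adjusted over all tested genes (Benjamini-Hochberg), with a threshold of 0.05. The median 95% interval reached 0.147 to each side. The number of arrays limits the precision.

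Values on every array are given for genes that passed, for the 4 smallest p in each phase, and for Ccnd1, Cdkn1a, Mki67, Pcna and Mcm2. From other lists, markers included, genes that passed were named; from pathway lists where none passed, the 2 with the smallest p were. The genes and lists were chosen with earlier results of these data known. The fit was tested on simulated data with known changes, where it found changes of the right sign; the share of false calls there was well above the threshold. Positions of probes come from the deposited files (mm9), without exon or UTR. Alternatives covered the dye term, background, normalisation, filter, probe per gene, variance, deposited values, array pairing and leaving out each array.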

Additional observations from a re-analysis of the deposited data

Results flagged for a closer look

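Among 18 groups of 4 array values examined, 2 had a value far from the other 3, and chance alone flags about 1 in 20 such groups. The log2 ratio of Mcm2 on array 3 was -0.044, and its gap to the nearest array was 0.855 of the whole range. The log2 ratio of Mcm6 on array 3 was 0.265, with a gap of 0.92 of the range. Both genes encode subunits of the MCM helicase, and both values came from the same array.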

How the results depend on the processing

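The number of genes past the threshold, 270 in the report, was 442 without background correction, 80 from Agilent processed signals, 450 from the deposited values, 1 with median centring and 605 with no replicate block (the channels of an array not paired). Leaving out 1 array gave 1 to 464 genes. The number of cell cycle genes past it, 3 in the report, was 0 with median centring, 6 with no replicate block, 6 at an adjusted p under 0.1, and 0 to 3 when 1 array was left out. Under no replicate block the genes added were Ccnd1, Mcm5 and Mcm6. With median centring Rrm2, Ccnf and Birc5 had ratios of -1.04, -0.92 and 0.84 (limma adjusted p = 0.184, 0.183 and 0.184), and the median of all genes was -0.05. Over 15 alternatives each of the 3 kept its sign, and Rrm2 passed in 11, Ccnf in 12 and Birc5 in 12. The call of Chaf1a's list was lost with median centring, and that of Ctps's list with median centring and with Agilent processed signals. When 1 array was left out, the median of G1 genes ran from -0.13 to -0.022 and that of S phase genes from 0.09 to 0.17. Cdkn1a changed sign without array 2 or array 3 and passed in neither. With 4 arrays and 2 residual degrees of freedom, the unadjusted interval of a gene of median precision reached about 0.147 to each side. Differences within that distance of 0 cannot be told from it for such a gene. The adjusted threshold asks for larger differences than this. Near the median SE of 0.0566, Mcm5 at 0.37 (SE 0.061) did not pass (limma adjusted p = 0.0737). Ctps at 0.56 (SE 0.055) passed (limma adjusted p = 0.0352). Of the 38 genes, 33 were well above background in every channel, and 34 were positive and significant in every channel by the scanner flag. The gene added was Top2a. Bub1b was positive and significant in 4 IlrunKO and 3 WT channels.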
